A study of Mus musculus with 6 samples.

Results

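Distal open regions shared by Th9, Th2 and Th17 cells were examined in a set of ATAC-seq peak lists from mouse T helper cells. ATAC-seq uses the transposase Tn5 to cut and tag accessible DNA, and a peak is a stretch where such fragments pile up. Overlapping or touching peaks of all 6 libraries on chromosomes 1 to 19 were merged into 225467 regions. The distal regions were chosen by the presence of a peak, by width and by distance: a region was kept when each of the 6 libraries had a peak in it, when it was under 5000 bp wide and when its nearest edge lay over 10 kb from every annotated start of a protein-coding gene. These criteria left 28484 regions, 12.6% of all joined regions and 58.4% of the 48805 that were called in all 6 libraries. Because they were selected on presence in every library, that presence is no result, and a region closed in any subset could not be among them. The values described here are their strength, their place within or between genes, their neighbouring genes and their sequence.

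All 6 libraries came from wild-type C57BL/6 mice. Naive CD4+CD62L+ T cells, from spleen per the labels and from spleen and lymph nodes per the general methods, were activated with antibodies to CD3 and CD28 and cultured with interleukin 4, interleukin 2 and an antibody to interferon γ for Th2 cells, with TGF-β1 in addition for Th9 cells, and with interleukin 6, TGF-β1, interleukin 23, interleukin 1β and antibodies to interferon γ, interleukin 4 and interleukin 2 for Th17 cells. Each subset had 2 libraries, numbered replicate 1 and replicate 3. Nothing in the labels says that the libraries of a subset came from separate mice, so p-values measure the spread between these libraries, which may be technical. The cultures are populations, so a weaker region may be open in fewer cells or less open in each, and these cannot be told apart. A peak lay over a start of 6 of 8 T cell marker genes in every library, among them Cd3e, Cd3d and Cd247, while Trac was called in none. Of the markers of other cells, Ebf1, Cebpa, Cd8b1, Pecam1 and Kdr were called in all 6 libraries, and Cd79a, Ms4a1, Lyz2, Spi1, Klf1 and Cd8a in none.

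Distal open regions include enhancers, which act on genes over long stretches of DNA, and sites held by the architectural factor CTCF, which anchors chromatin loops. In T cells, factors that are induced by antigen receptor signals, such as the AP-1 family member BATF, and STAT proteins, which carry cytokine signals to the nucleus, bind many such elements. ETS and RUNX factors bind them in T cells of all kinds, and GATA3 is the factor most closely tied to the Th2 programme.

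The sequences of a few of these regions show what the lists hold. Each is a window of 300 bases centred on the longest stretch that all 6 libraries covered (on the middle of the region where there was none), read from the plus strand of GRCm38, the assembly displayed as mm10, with positions counted from 1 at its first base. Capitals mark matches to one of the short motifs searched on both strands: AP-1 (TGANTCA), STAT (TTC and GAA with 3 or 4 bases between), ETS (AGGAAGT), RUNX (TGTGGTT), the word AGATAA of GATA factors, T-box (GGTGTGA), TCF/LEF (CTTTGAT) and CTCF. A match is a description of letters and not evidence of binding. The first 6 windows were chosen for a large difference between subsets, 1 for each direction, and are named by the nearest start of a protein-coding gene.
Vav2, Th9 over Th2 (chr2:27404969-27405268): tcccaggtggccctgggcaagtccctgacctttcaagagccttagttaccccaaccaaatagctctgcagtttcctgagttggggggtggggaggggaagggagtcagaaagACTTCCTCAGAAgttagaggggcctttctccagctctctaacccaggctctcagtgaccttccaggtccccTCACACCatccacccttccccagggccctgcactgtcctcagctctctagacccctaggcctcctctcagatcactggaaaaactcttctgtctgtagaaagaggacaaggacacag
Fhit, Th2 over Th9 (chr14:10861822-10862121): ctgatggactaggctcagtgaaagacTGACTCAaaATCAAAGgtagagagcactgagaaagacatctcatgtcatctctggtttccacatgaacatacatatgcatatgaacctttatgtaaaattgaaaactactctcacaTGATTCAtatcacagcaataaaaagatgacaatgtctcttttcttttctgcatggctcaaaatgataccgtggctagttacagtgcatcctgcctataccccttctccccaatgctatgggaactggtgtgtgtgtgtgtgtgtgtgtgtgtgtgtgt
Ddit4, Th9 over Th17 (chr10:59936334-59936633): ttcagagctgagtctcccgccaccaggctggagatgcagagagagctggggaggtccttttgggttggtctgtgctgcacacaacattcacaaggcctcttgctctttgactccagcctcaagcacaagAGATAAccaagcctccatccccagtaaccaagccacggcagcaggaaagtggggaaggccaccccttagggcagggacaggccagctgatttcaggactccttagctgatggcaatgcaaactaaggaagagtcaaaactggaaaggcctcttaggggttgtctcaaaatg
Tle4, Th17 over Th9 (chr19:14695426-14695725): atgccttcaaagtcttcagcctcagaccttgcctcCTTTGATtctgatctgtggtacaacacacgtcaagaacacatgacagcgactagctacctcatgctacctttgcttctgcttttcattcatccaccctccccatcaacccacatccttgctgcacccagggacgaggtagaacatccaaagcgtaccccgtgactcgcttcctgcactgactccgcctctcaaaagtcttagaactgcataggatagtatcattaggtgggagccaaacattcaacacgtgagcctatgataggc
Mef2c, Th2 over Th17 (chr13:83153770-83154069): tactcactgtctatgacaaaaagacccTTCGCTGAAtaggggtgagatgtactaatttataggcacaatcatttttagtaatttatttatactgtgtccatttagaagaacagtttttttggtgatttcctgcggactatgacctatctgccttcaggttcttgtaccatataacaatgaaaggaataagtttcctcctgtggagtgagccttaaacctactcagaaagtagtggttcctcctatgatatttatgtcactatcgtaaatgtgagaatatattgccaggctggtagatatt
Kcnh8, Th17 over Th2 (chr17:52468532-52468831): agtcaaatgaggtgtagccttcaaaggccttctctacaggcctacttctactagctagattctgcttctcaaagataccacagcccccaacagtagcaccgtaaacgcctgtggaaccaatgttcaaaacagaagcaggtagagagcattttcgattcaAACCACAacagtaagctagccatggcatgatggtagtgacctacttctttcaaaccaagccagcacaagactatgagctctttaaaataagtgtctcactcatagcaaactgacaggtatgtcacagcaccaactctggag
The Fhit window, in an intron of that gene, held AP-1 matches at positions 27 and 143, and the TCF/LEF match at position 36 stood close to the first. The Vav2 window held an ETS match at 113 that overlapped a STAT match at 115, and a T-box match at 184. The Mef2c window held a STAT match at position 28, the Ddit4 window a GATA match at 130 and the Kcnh8 window a RUNX match at 160.

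The next windows were chosen for their genes. They are the strongest distal regions nearest to Il13, Il17f and Il17a, which encode signature cytokines of Th2 and Th17 cells. The fourth is the strongest region of single-copy sequence that matched CTCF and differed in no comparison, and it lay between genes 12.9 kb from a start of Phlda3.
Il13 (chr11:53656791-53657090): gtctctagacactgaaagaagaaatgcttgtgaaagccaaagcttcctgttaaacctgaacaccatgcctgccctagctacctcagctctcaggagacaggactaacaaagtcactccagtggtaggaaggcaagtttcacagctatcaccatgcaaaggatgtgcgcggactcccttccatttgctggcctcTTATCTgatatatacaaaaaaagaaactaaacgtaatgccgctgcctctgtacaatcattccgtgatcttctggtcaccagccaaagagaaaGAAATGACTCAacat
Il17f (chr1:20759830-20760129): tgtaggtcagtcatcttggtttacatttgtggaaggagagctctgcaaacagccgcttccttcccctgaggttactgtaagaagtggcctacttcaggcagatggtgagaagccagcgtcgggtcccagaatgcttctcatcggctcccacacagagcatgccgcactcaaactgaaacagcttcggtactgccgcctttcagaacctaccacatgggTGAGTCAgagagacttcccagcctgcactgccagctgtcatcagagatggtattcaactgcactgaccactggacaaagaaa
Il17a (chr1:20743919-20744218): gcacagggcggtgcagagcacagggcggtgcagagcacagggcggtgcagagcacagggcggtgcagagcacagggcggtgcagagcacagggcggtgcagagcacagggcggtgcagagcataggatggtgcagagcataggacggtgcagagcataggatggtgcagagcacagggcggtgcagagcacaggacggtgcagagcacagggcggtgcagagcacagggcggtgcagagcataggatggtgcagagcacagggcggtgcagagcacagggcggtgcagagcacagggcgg
Phlda3, CTCF (chr1:135752873-135753172): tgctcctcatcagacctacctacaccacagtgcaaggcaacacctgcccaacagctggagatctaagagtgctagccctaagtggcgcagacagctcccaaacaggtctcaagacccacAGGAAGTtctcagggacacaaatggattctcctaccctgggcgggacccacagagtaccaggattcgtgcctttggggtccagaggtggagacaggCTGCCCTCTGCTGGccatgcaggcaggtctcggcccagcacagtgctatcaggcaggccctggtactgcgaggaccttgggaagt
The Il13 window lay in an intron of Rad50, the gene that holds the locus control region of the Th2 cytokine cluster, and had a GATA match at 194 and an AP-1 match at 290 with GAAA directly before it. The Il17f window had an AP-1 match at 219. The Il17a window matched none of these motifs and is a short tandem repeat. The Phlda3 window had its CTCF match at 216, and its percentile within its list was 96.0 and 91.2 for the Th9 libraries, 93.2 and 92.3 for Th2 and 93.7 and 89.0 for Th17.

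The distal regions were weak beside the starts of genes. Fold enrichment, the signal of a peak over the genome-wide background, was the authors' own value. The strength of a region in a library was the percentile, within that library's list, of its peak with the highest fold enrichment. The median over the distal regions was at percentile 74.9 and 63.9 for Th9 replicates 1 and 3, 74.8 and 66.8 for Th2 and 72.6 and 66.6 for Th17. Replicate 1 was the higher in every subset, and it also had the longer list, with 136987 and 98200 peaks on chromosomes 1 to 19 for Th9, 136961 and 116143 for Th2 and 120687 and 94854 for Th17. Ranked among the 48805 regions called in all 6 libraries, a scale that list length does not affect and that was added after seeing the data, the distal medians lay between 38.5 and 40.9 in all 6 libraries. The subset means of 69.4 ± 7.74 for Th9, 70.8 ± 5.65 for Th2 and 69.6 ± 4.29 for Th17 (SD, n = 2 each) differed by less than the replicates did. For comparison, 11267 regions under 5000 bp that were called in all 6 libraries and overlapped a start of a protein-coding gene had medians from 91.6 to 93.7. The distal median was lower by 22.6 percentile points on average (−22.6 ± 4.32, SD, n = 6), and lower in 6 of 6 libraries, with differences from −28.4 to −17.3 (two-sided exact permutation test over the signs, p = 0.03125, the smallest that 64 arrangements allow). The bases covered by peaks were fewer too, with medians from 654 to 857 bp in the distal regions and a mean difference of −649 ± 97.1 bp (SD, n = 6, exact permutation p = 0.03125). Ranked among the shared regions, the difference was −42.0 ± 2.45 points, lower in 6 of 6 libraries (exact permutation p = 0.03125). It was −13.5 points with peaks of at least 2.2-fold enrichment alone and −9.08 with a −log10 q of at least 5. With peaks of at least 4-fold enrichment alone, which left 2973 distal regions, the difference shrank to −2.57 percentile points and was lower in 5 of 6 libraries (exact permutation p = 0.0625). Percentiles were kept within the whole list, so these minima cut away the lower part of the scale for both sets. The smaller differences therefore cannot show whether the gap depends on weak peaks.

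**Figure D1:**
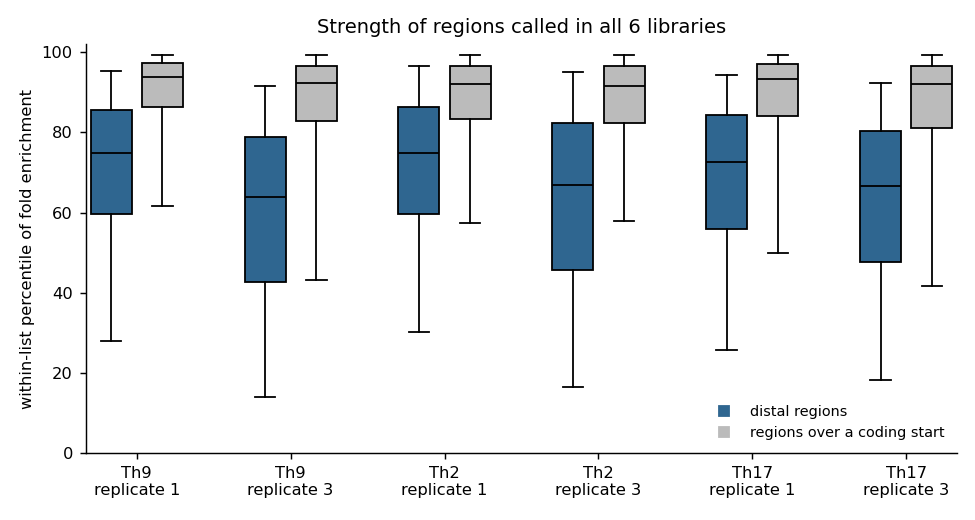
Within-list percentile of fold enrichment (vertical axis) in each of the 6 libraries (horizontal axis), for the 28484 distal regions and the 11267 regions over a start that were called in all 6 libraries. Boxes span the quartiles with a line at the median, and whiskers reach from the 5th to the 95th percentile of the regions. The distal medians lie between 63.9 and 74.9 and the start-overlapping medians between 91.6 and 93.7.

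Strength varied widely among the distal regions. The mean percentile over the 6 libraries ran from 8.78 to 99.9978, with quartiles at 52.3, 68.3 and 80.9. Only 1014 regions, 3.56%, were above percentile 90 in every library, against 5314 or 47.2% of the start-overlapping regions, while 1387 or 4.87% were below percentile 50 in every library. The median fold enrichment lay between 2.62 and 3.26 over the libraries, not far above the lowest fold called, which was 2.11 in Th9 replicate 1 and 1.71 to 1.83 in the rest. The lists hold no read counts, so no counting error can be given for a single region. The median width was 1232 bp, with quartiles at 760 and 1934 bp, and the stretch covered by all 6 libraries at once had a median of 393 bp. In 844 regions, 2.96%, the peaks of the libraries shared no base at all. Just inside the limits of the selection were a region 10.003 kb from a start of Mup2 and one of 4999 bp nearest to Dgkd, and just outside were one 9.998 kb from a start of Rnf123 and one of 5000 bp nearest to Rps6kc1.

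Libraries of a subset ranked the distal regions more alike than libraries of different subsets. Over the 28484 regions, Spearman's correlation of the percentiles was 0.813 for the pair of Th9 libraries, 0.868 for the Th2 pair and 0.880 for the Th17 pair, and 0.692 to 0.807 for the 12 pairs of libraries from different subsets. Among those, Th2 and Th9 libraries had the highest mean at 0.782, followed by Th17 and Th2 at 0.743 and Th17 and Th9 at 0.709. Over the 11267 start-overlapping regions the correlations were 0.932 to 0.961 within a subset and 0.876 to 0.940 between subsets, where Th2 and Th9 had the lowest mean, 0.901. These are descriptions across regions of the same 6 lists, which also share their base composition and copy number, and regions are not replicates.

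Which subset was most often the strongest depended on the scale. The mean within-list percentile was highest in Th2 in 10564 distal regions (37.1%), in Th17 in 9786 (34.4%) and in Th9 in 8134 (28.6%), and Th2 also had the longest lists on average. Ranked among the shared regions, the mean was highest in Th17 in 10987 (38.6%), in Th9 in 8876 (31.2%) and in Th2 in 8621 (30.3%). In start-overlapping regions Th9 was the most frequent on both scales, with 44.5% and 43.2%. A stricter count took the regions where both libraries of a subset were above or below all 4 others. By within-list percentile there were 3452 such regions for Th2, 12.1% of the distal regions against 11.7% of all 48805 regions called in all 6 libraries, 2448 or 8.59% for Th17 against 7.64%, and 1679 or 5.89% for Th9 against 9.06%. Both libraries were below all 4 others in 2675 regions or 9.39% for Th9 against 8.99%, in 1165 or 4.09% for Th2 against 7.31%, and in 3099 or 10.9% for Th17 against 10.9%. Ranked among the shared regions, both libraries were highest in 3454 distal regions or 12.1% for Th2 against 10.9%, in 3961 or 13.9% for Th17 against 12.1%, and in 2640 or 9.27% for Th9 against 11.4%. On that scale both were lowest in 3410 or 11.97% for Th9 against 11.1%, in 2464 or 8.65% for Th2 against 12.4%, and in 3507 or 12.3% for Th17 against 11.7%. Th9 highest and Th2 lowest were below the background on both scales, and the other 4 were near it or above it.

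The difference between subsets was then tested region by region with limma on log2 fold enrichment, quantile-normalised over the 6 libraries and fitted to all 48805 regions, with Benjamini-Hochberg adjustment and an adjusted p under 0.05 as the call. Of the distal regions, 4031 or 14.2% were called in at least 1 of the 3 comparisons, against 11.9% of all regions in the fit and 583 or 5.17% of the start-overlapping regions. The remaining 24453, 85.8%, were called in none, which does not show that they were equal.

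Th2 and Th17 cells differed in the most distal regions. In 1832 of them, 6.43%, the signal was higher in Th2 (background 5.13%), and in 832, 2.92%, it was higher in Th17 (background 2.49%). Between Th9 and Th17 the calls were about even, with 1078 regions or 3.78% higher in Th9 (background 3.19%) and 1131 or 3.97% higher in Th17 (background 2.99%). Th9 and Th2 differed in the fewest, with 238 or 0.836% higher in Th9 (background 1.10%) and 815 or 2.86% higher in Th2 (background 2.26%). That last split depends on the scaling: with each list centred on its median in place of quantile normalisation, 549 were higher in Th9 and 722 in Th2. In the start-overlapping regions the Th9 and Th2 calls ran the opposite way, with 203 higher in Th9 and 33 in Th2. A region can be called in several of these comparisons, which share libraries. By combination, 510 distal regions were higher in Th17 than in both other subsets (1.79% of distal regions, 1.31% of all regions in the fit) and 646 lower (2.27% and 1.74%). For Th2, 465 were higher than in both others (1.63% and 1.28%) and 38 lower (0.133% and 0.221%), and for Th9, 116 were higher (0.407% and 0.373%) and 120 lower (0.421% and 0.303%).

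**Figure D2:**
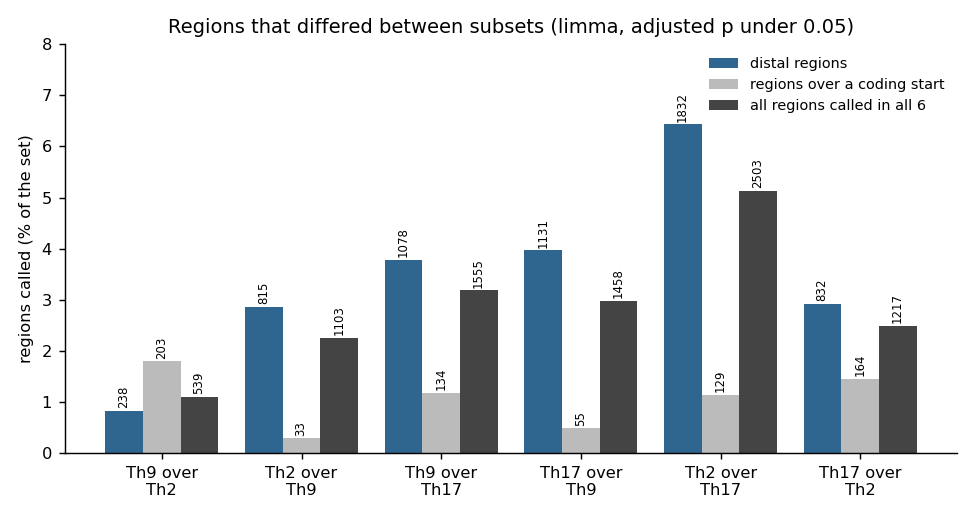
Percentage of regions called by limma at an adjusted p under 0.05 (vertical axis) in each direction of the 3 comparisons (horizontal axis), for the distal regions, the start-overlapping regions and all 48805 regions in the fit. The distal share is largest for Th2 over Th17 at 6.43% and smallest for Th9 over Th2 at 0.836%.

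The number of calls depended on single libraries and on the scale. Leaving out Th9 replicate 1 or 3 lowered the 1053 calls between Th9 and Th2 to 446 or 352, leaving out Th2 replicate 1 or 3 to 682 or 618, and leaving out Th17 replicate 1 or 3 to 555 or 657. Each of these refits used the regions called in the remaining 5 libraries. Between Th9 and Th17, with 2209 calls from all 6 libraries, the refits made 1211 or 1472 without Th9 replicate 1 or 3, and 643 or 732 without Th17 replicate 1 or 3. Between Th2 and Th17, with 2664 calls, they made 1351 or 1059 without Th17 replicate 1 or 3. When the within-list percentile replaced log2 fold enrichment, limma called 0, 103 and 288 distal regions in the 3 comparisons, with 2518, 3809 and 3597 at an unadjusted p under 0.05. Of the 24 largest differences, 4 for each direction, 18 did not pass on that scale.

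The regions with the largest differences show the size of these calls. The largest between Th9 and Th2 lay between genes 21.6 kb from a start of Mterf1b (chr5:4213937-4214815), with a fold enrichment of 3.17 and 3.799 for the Th9 libraries, 12.8 and 16.4 for Th2 and 2.41 and 2.57 for Th17. Both Th2 libraries stood far above the other 4. The log2 difference of Th9 minus Th2 was −2.18 ± 0.20 (SE, limma adjusted p = 0.000125), and its window occurs in a median of 2 copies in the assembly. The Fhit intronic region, whose AP-1 matches are printed above, had fold enrichments of 3.81 and 3.50 for Th9, 13.0 and 12.5 for Th2 and 3.26 and 2.35 for Th17. Its Th9 minus Th2 difference was −1.91 ± 0.19 (limma adjusted p = 0.000331), and Th2 exceeded Th17 by 2.19 ± 0.19 (limma adjusted p = 1.44e-05).

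Fewer and smaller differences put Th9 above Th2. The largest lay in an intron of Zeb1, a repressor of interleukin 2 transcription, with fold enrichments of 8.43 and 6.87 for Th9, 2.54 and 2.78 for Th2 and 2.63 and 2.52 for Th17, and a log2 difference of 1.46 ± 0.19 over Th2 (limma adjusted p = 0.00195). An intronic region of Vav2 had 6.74 and 8.10 for Th9, 2.61 and 3.01 for Th2 and 2.82 and 3.27 for Th17. It was higher in Th9 than in Th2 by 1.31 ± 0.20 (limma adjusted p = 0.00409). Further regions of this direction were nearest to Efcab3 and Disc1, with differences of 1.33 each.

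Between Th9 and Th17, a region 14.9 kb from a start of Ddit4, an inhibitor of mTOR signalling, had fold enrichments of 14.2 and 14.7 for Th9, 9.60 and 12.01 for Th2 and 2.90 and 2.69 for Th17. The Th9 and Th2 libraries were all above the Th17 libraries, with a Th9 minus Th17 difference of 2.08 ± 0.17 (limma adjusted p = 5.01e-05). Regions nearest to Bank1, Mef2c and Pmch followed with 2.06, 1.97 and 1.87. In the opposite direction, a region 97.3 kb from a start of Tle4, a co-repressor of the Groucho family, had fold enrichments of 3.22 and 2.44 for Th9, 3.07 and 2.94 for Th2 and 10.7 and 8.39 for Th17. Here the Th17 libraries stood alone, and the difference was −1.92 ± 0.18 (limma adjusted p = 0.000177).

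Between Th2 and Th17, a region 129 kb from a start of Zfp608 was higher in Th2 by 2.58 ± 0.19 (limma adjusted p = 7.84e-06). The Mef2c region, 348 kb from the start of that MADS-box factor, had 13.8 and 7.36 for Th9, 10.1 and 13.4 for Th2 and 2.89 and 1.83 for Th17. A region 133.6 kb from a start of Kcnh8 had 3.79 and 2.50 for Th9, 2.53 and 2.53 for Th2 and 10.2 and 8.29 for Th17, and its Th2 minus Th17 difference was −2.01 ± 0.19 (limma adjusted p = 2.10e-05). A region 93.2 kb from a start of Ifngr1, a chain of the interferon γ receptor, was also higher in Th17 than in Th2, with a difference of −1.79.

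The sequence letters of the called regions differed by direction. The AP-1 motif TGANTCA was present in the window of 32.7% of regions with any call and 13.0% of those with none. It was in 45.8% of the regions higher in Th2 than in Th9 but in 16.8% of those higher in Th9 than in Th2, and in 39.8% of regions higher in Th2 than in Th17 but in 18.4% of the reverse. The STAT motif with 3 bases between its arms ran the other way in the first of these comparisons, with 22.3% of the regions higher in Th9 than in Th2 and 7.98% of the reverse, and it was in 20.2% of regions higher in Th9 than in Th17 and 8.49% of the reverse. The GATA motif was more frequent in regions that were higher in Th9 or Th2 than in Th17, at 18.6% and 19.3%, than in the reverse directions, at 11.6% and 9.50%. The ETS and RUNX motifs were most frequent in regions higher in Th17 than in Th2, at 27.04% and 21.4%. In windows that occur once in the assembly the first contrasts were similar, with AP-1 in 46.6% and 19.1% and STAT in 8.39% and 24.6% of regions higher in Th2 and in Th9. AP-1 itself rose with strength, from 7.58% of the weakest to 24.9% of the strongest of 4 equal classes by mean percentile. It was in 20.9% of windows of 1 copy and 0.726% of those with 10 or more copies. Calls followed strength and copy number in the same direction, as given below, and their part in these contrasts was not tested. These shares are counts over regions of the same 6 libraries, with no test.

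The CTCF motif showed another distribution. It was in 4.45% of the distal regions with no call and 0.595% of those with any call, and in 0.120% to 1.15% over the 6 directions. It was commonest in the middle of the strength range, in 5.67% and 5.87% of the 2 middle classes when the regions were split by mean percentile into 4 classes of equal size, against 2.01% and 2.06% of the weakest and strongest classes. Over all distal regions AP-1 was in 15.8%, ETS in 11.9%, GATA in 9.48%, STAT with 3 bases between in 9.35% and with 4 in 5.83%, RUNX in 8.92% and CTCF in 3.90%. In the start-overlapping regions AP-1 was in 3.78%, ETS in 6.88%, GATA in 3.74%, STAT with 3 bases between in 5.18%, RUNX in 3.00% and CTCF in 0.453%. Of 32851 RefSeq promoter windows of the same length, 7.81% held AP-1, 9.35% ETS, 11.2% GATA, 8.30% STAT with 3 bases between, 5.27% RUNX and 0.335% CTCF, and of 23959 windows spaced evenly along the chromosomes 8.81%, 7.26%, 18.99%, 11.1%, 6.80% and 0.0751% did. The median GC content was 50.0% in the distal windows and 66.0% in the start-overlapping ones, and its part in these shares was not tested.

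**Figure D3:**
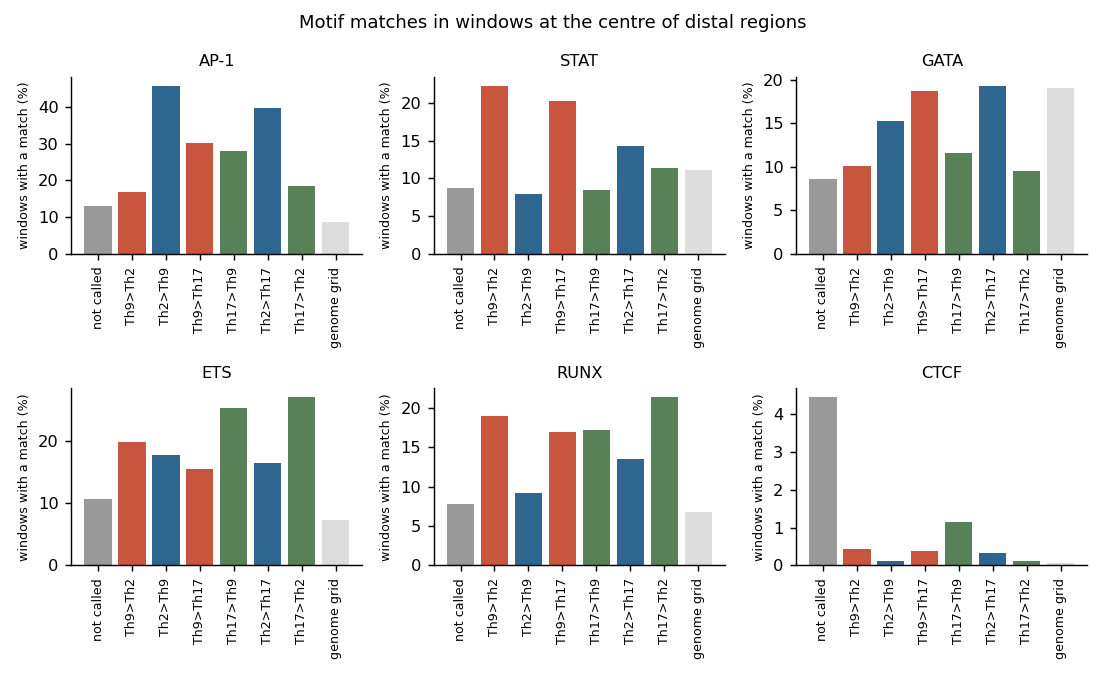
Percentage of 300-base windows that hold each of 6 motifs (vertical axes, from 0, with a different range for each motif, and STAT with 3 bases between) in distal regions with no call (grey), in distal regions called in each of the 6 directions (coloured by the higher subset) and in evenly spaced windows of the genome (light grey). AP-1 is highest at 45.8% in regions higher in Th2 than Th9, STAT at 22.3% in regions higher in Th9 than Th2, and CTCF at 4.45% in regions with no call.

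By position, 10186 of the distal regions lay within introns, 35.8% (95% Wilson interval 35.2% to 36.3%, counting error only), close to the 34.6% of the allowed sequence that is intronic. A further 16262, 57.1%, lay between genes, which make up 63.6% of that sequence. The other 2036, 7.15%, touched an exon of a protein-coding gene, where 1.75% of the sequence is exonic, though a region counted as exonic when a single base of it overlapped. Position was read from protein-coding genes alone, so a region in a non-coding gene or an antigen receptor segment could count as between genes. Of the distal regions that were not called in all 6 libraries, 33.6% were intronic and 62.2% intergenic. The median distance to a start was 55.0 kb and the largest 2627517 bp, and 1244 regions, 4.37%, overlapped a start of an annotated gene that is not protein-coding. Intronic regions were slightly stronger than intergenic ones, with median mean percentiles of 69.6 and 66.8, and regions over 200 kb from a start were weaker, at 58.7, than those within 50 kb, at 71.4.

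The share of regions called as different varied with position, strength and copy number. At least 1 call was made for 16.9% of intronic, 11.9% of intergenic and 18.4% of exonic distal regions, and for 16.3%, 14.3% and 7.94% of those at 10 to 50 kb, 50 to 200 kb and over 200 kb from a start. From the weakest to the strongest of the 4 classes by mean percentile the share was 4.06%, 11.7%, 17.9% and 22.9%. It was 18.3% of the 20768 regions whose window occurs once in the assembly, as the median over its 31-base words, 5.49% of the 2895 with more than 1 and under 10 copies and 1.60% of the 4821 with 10 or more. These classes overlap, and the part of each in the others was not tested.

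**Figure D4:**
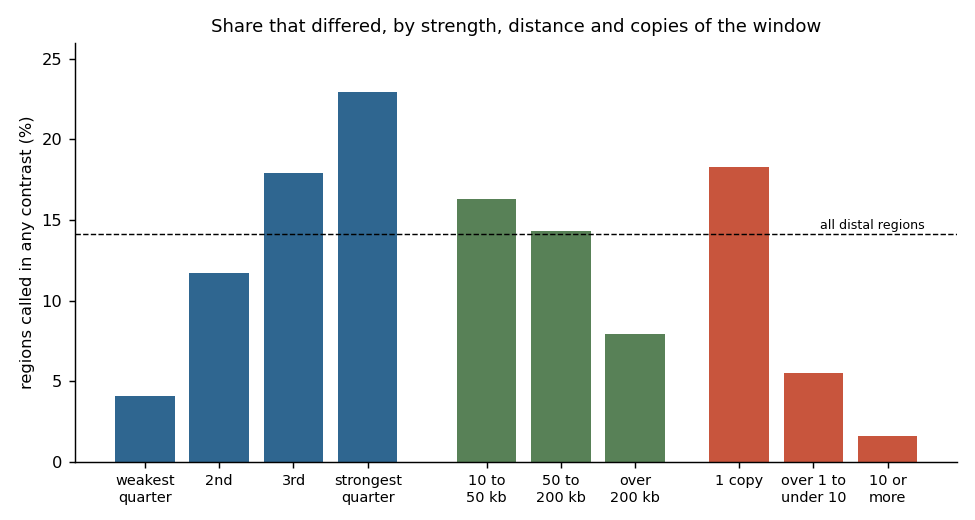
Percentage of distal regions called in at least 1 of the 3 comparisons (vertical axis) by class of mean percentile, distance from a start and copies of the window (horizontal axis), with a dashed line at the 14.2% of all distal regions. The share runs from 1.60% in windows of 10 or more copies to 22.9% in the strongest class.

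Repeated sequence was frequent at the top of the strength ranking. Among the 100 strongest distal regions, 69 had a window of 2 or more copies or with over 10% of its 31-base words in the mitochondrial genome, against 7705 or 27.1% of all. By contrast 97.2% of start-overlapping regions had windows of 1 copy. The strongest of all, 24.1 kb from a start of Col19a1 (chr1:24611534-24616184), had fold enrichments of 1522 and 1172 for the Th9 libraries, 1382 and 1365 for Th2 and 1190 and 870 for Th17. Of the 31-base words of its window, 100% were in the mitochondrial genome, whose reads the authors had removed after alignment, and the middle of the window reads:
Col19a1 (chr1:24613785-24613934): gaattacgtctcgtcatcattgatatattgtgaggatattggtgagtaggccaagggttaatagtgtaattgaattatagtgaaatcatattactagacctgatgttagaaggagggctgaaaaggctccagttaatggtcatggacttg
The others of the top 5 were nearest to Zfp825, Galc, Rpusd4 and Fgf14, with mean percentiles from 99.9893 to 99.9946. The Galc region had 88.5% of its words in the mitochondrial genome, and the Zfp825 and Fgf14 windows had a median of 65 and 1835 copies. At the other end, the 5 weakest regions, nearest to Sel1l, Spink13, Vmn1r234 (2 regions) and Sall3, had mean percentiles from 8.78 to 10.4. Leaving out every region whose window has more than 1 copy, an alternative chosen after seeing the data, gave 974, 2090 and 2530 calls in the 3 comparisons.

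Genes differed in how many distal regions surrounded them. Of 20780 protein-coding genes, 8415 or 40.5% were the nearest to at least 1, with a median of 2, and 532 genes with 10 or more held 8119 of the regions, 28.5%. The largest numbers were at Zfp386 (72), Adgrl2 (71) and Adam6a (55), followed by Zfp516 (49), Cdh4 and Gpc5 (44 each), Rapgef5 (43), Zfhx3 (38), and Camk1g and St6galnac5 (37 each). At Cdh4, which encodes retinal cadherin, the median mean percentile was 40.3 and 0 of 44 regions were called, and at Adgrl2, an adhesion receptor, 5 of 71 were, beside 14.2% of all distal regions and 11.9% of all regions in the fit. Within introns, Fgfr2, a fibroblast growth factor receptor, held 52, Hs6st3 33, Ptprn2 and Zfhx3 32 each, Negr1 30, Rbms3 29, Pde4d 28, Dscam and Macrod2 27 each and St6galnac3 26. Over the 3788 genes with an intronic region, Spearman's correlation of the number with gene length was 0.578, a description across genes.

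Per length of gene the order was another one. Among genes with at least 5 intronic regions, Bcl11b, a transcription factor needed for T cell identity, had the highest density at 10.7 per 100 kb, with 10 regions. Igfbp7 had 10.2, as did Cd247, which encodes the ζ chain of the T cell receptor complex and held 9. Dusp10, a phosphatase of stress-activated kinases, had 9.63 and Slain1 9.14, and Mosmo, Ano10, Igsf5, Slc44a5 and Tmtc1 had 8.74 to 8.02. None of the 10 intronic regions of Bcl11b was called as different, and 3 of the 9 of Cd247 and 3 of the 5 of Slain1 were. The share called was 16.9% of intronic distal regions, 14.2% of all distal regions and 11.9% of all regions in the fit.

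Zfp386 and Adam6a flank the variable segments of the immunoglobulin heavy chain, which the annotation does not count as protein-coding genes. This stretch of 2.42 Mb (chr12:113578504-116000461) holds 113 variable gene segments and 124 of the distal regions, of which 75 overlapped a segment. The median percentile was 78.6 and 56.6 for the Th9 libraries, 72.3 and 62.6 for Th2 and 80.6 and 73.6 for Th17. Both Th17 medians lay above both Th2 medians, and the Th9 medians overlapped both. Of the 124 regions, 31 or 25% were higher in Th17 than in Th2, against 2.92% of distal regions and 2.49% of all regions in the fit, and 1 was lower. In the comparison with Th9, 11 were higher in Th17, where the shares are 3.97% and 2.99%, and 2 lower. Other stretches of this size were not examined. A median of 2 or more copies was found for 51 of the windows, and 19 of the 31 were in windows of 1 copy. Of the B cell markers, Ebf1 was called at a start in every library and Cd79a, Ms4a1, Pax5 and Blk in none.

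Many genes of T helper function were the nearest gene to a distal region. Of 30 T helper transcription factors, 28 were the nearest gene to at least 1, with 259 regions in all and 8.63 per gene, against 1.37 over all protein-coding genes. The numbers were largest for Maf (24), Gata3 (23), Ets1 (20), Bach2 (19), Runx1 (18) and Id2 (16), while Irf4 had 11 and Batf 3. Of these 259 regions 72, or 27.8%, were called in at least 1 comparison. The share was 14.2% of all distal regions and 11.9% of all regions in the fit. The median mean percentile of the 259 was 76.3 against 68.3 of all distal regions. Calls were more frequent in stronger regions, and the part of strength here was not tested. Antigen receptor signalling genes were near 93 regions, with 15 called (16.1%) and Rasgrp1 (19) in the lead. Cytokine receptors were near 61 with 22 called (36.1%), 27 of them at Tgfbr2, a receptor chain for TGF-β. Costimulatory and inhibitory genes were near 83 with 31 called (37.3%), led by Cblb (23), an E3 ligase that restrains activation. Migration genes were near 60 with 20 called (33.3%), led by S1pr1 (17), and cytokines near 32 with 10 called (31.25%). The 15 genes of other tissues were near 29 regions. That is 1.93 per gene, above the 1.37 of all protein-coding genes and close to the 2.13 of the cytokines. Their regions had a median mean percentile of 61.5, and 1 was called (3.45%). Since the lists were chosen with results of these data known, these counts are descriptions.

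The regions around 2 regulators illustrate how calls were spread within a locus, beside the 14.2% of distal regions and 11.9% of all regions called in at least 1 comparison. Gata3 had 11 of 23 regions called, all downstream of the gene and up to 1012.65 kb from its start, where the nearest gene is only an assignment by distance. Of these, 4 were higher in Th9 than in Th17, 3 higher in Th2 than in Th17, 3 higher in Th17 than in Th9, 2 higher in Th17 than in Th2, and 1 each went in either direction between Th9 and Th2. Prdm1, which encodes the repressor Blimp-1, had 6 of 10 called, and 5 of these were higher in both Th9 and Th2 than in Th17. The strongest of them, 75.4 kb from the start, was at percentile 98.1 and 95.4 for Th9, 97.8 and 98.5 for Th2 and 89.9 and 85.8 for Th17. A region 70.5 kb upstream of Satb1, a chromatin organiser (chr17:51903834-51904280), was called in all 3 comparisons. Its percentile was 19.9 and 54.9 for Th9, 84.4 and 82.7 for Th2 and 94.0 and 92.0 for Th17, with no overlap between the subsets.

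Among the cytokine genes, 11 of 15 had a distal region open in all 6 libraries, and the calls differed by gene. A region 13.7 kb from the start of Il5, on its downstream side (chr11:53734540-53736036), whose product drives eosinophils, was at percentile 93.2 and 91.6 for Th9, 81.1 and 65.2 for Th2 and 76.3 and 59.8 for Th17. Both Th9 libraries were above the rest, by 1.04 ± 0.20 over Th2 (limma adjusted p = 0.0107) and 1.13 ± 0.20 over Th17 (limma adjusted p = 0.00272). The Il13 region in Rad50, which holds GATA and AP-1 matches, was at 92.5 and 86.8 for Th9, 93.4 and 89.9 for Th2 and 73.4 and 64.6 for Th17. It was lower in Th17 than in both others, by 0.91 ± 0.18 against Th9 (limma adjusted p = 0.00696) and 1.02 ± 0.18 against Th2 (limma adjusted p = 0.00229).

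At the genes of interleukins 17A and 17F the order turned. The region 12.8 kb from the start of Il17a, on its downstream side (chr1:20743716-20744474) was at percentile 97.1 and 96.1 for Th9, 97.4 and 97.2 for Th2 and 99.9 and 99.6 for Th17. Its window is the short tandem repeat printed above. Of the 3 regions nearest to Il17a, 2 had windows of 2 or more copies, and the part of repeats here was not tested. The differences of −1.02 ± 0.17 for Th9 minus Th17 (limma adjusted p = 0.00219) and −0.95 ± 0.17 for Th2 minus Th17 (limma adjusted p = 0.00221) were past the threshold, while 2 other regions nearest to Il17a were called in no comparison. Near Il17f, chr1:20759454-20760688 was at 89.4 and 85.7 for Th9, 94.8 and 94.5 for Th2 and 97.04 and 93.2 for Th17, and was called against Th9 alone (−0.77 ± 0.18, limma adjusted p = 0.0156). Th17 was also higher than Th2 at 2 of 3 regions of Il21 and 1 of 10 of Ifng. The shares in that direction were 2.92% of distal regions and 2.49% of all regions in the fit. The region of Ifng was the only 1 of its 10 with any call. A region of Lif, 76.6 kb from its start, was higher in both Th9 and Th2 than in Th17. A region of Il10, 29.2 kb from its start, was called as higher in Th9 than in Th17 alone.

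The single distal region nearest to Il9, in an intron of Slc25a48 (chr13:56468397-56469335), was at percentile 79.0 and 72.8 for Th9, 78.3 and 79.2 for Th2 and 76.4 and 62.3 for Th17. The Th9 libraries overlapped those of both other subsets, and both Th2 libraries lay above both Th17 libraries. No difference was called there, with −0.05 ± 0.19 for Th9 minus Th2 (limma adjusted p = 0.928), 0.16 ± 0.19 for Th9 minus Th17 (limma adjusted p = 0.733) and 0.20 ± 0.19 for Th2 minus Th17 (limma adjusted p = 0.642). Il3, Il4, Tnf and Tgfb1 were the nearest gene to 0 of the distal regions. The plot of cytokine regions gives each library's value for the 10 regions of this list with a call.

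**Figure D5:**
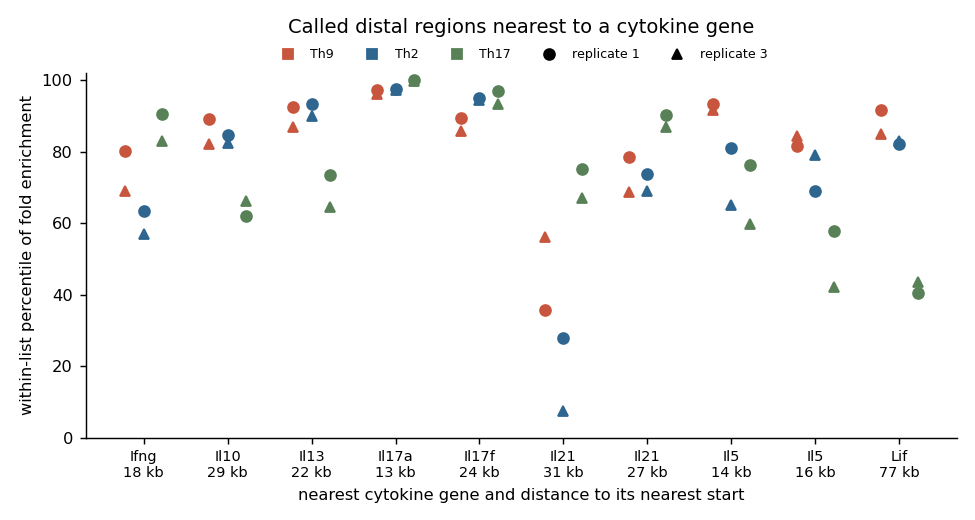
Within-list percentile of fold enrichment (vertical axis) in each of the 6 libraries for the 10 distal regions nearest to a cytokine gene that were called in at least 1 comparison, named with their distance in kb (horizontal axis). Colours stand for subsets, and circles and triangles for replicates 1 and 3. The Il5 region at 13.7 kb has both Th9 libraries above the rest, and the Il13 region has both Th17 libraries below the rest. The Il17a region, whose window is a tandem repeat, has both Th17 libraries above the rest.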

How the data were processed

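The 6 libraries analysed were 2 each of Th9, Th2 and Th17 cells. Per the labels and the submitters' processing notes, reads were trimmed with Trim Galore 0.4.3, aligned to mm10 with Bowtie2 and freed of duplicates with Picard, and peaks were called per library with MACS2 2.1.0. Per the methods, reads of mapping quality under 10 and mitochondrial reads were removed and MACS2 was run in its broad mode on fragments with no local background. The peak-calling threshold was not given in the sources used here. The deposited lists give, for each peak, the fold enrichment over background (a linear ratio), the −log10 of the p-value and the −log10 of the q-value, as the authors deposited them. Their display score was not used. The lists hold no read counts, so the depth behind a region is unknown and no counting interval was given for it.

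Regions, members and genes were computed in Python 3.11.15 (numpy 2.4.6, pandas 2.3.3, scipy 1.17.1, numba 0.67.0) with GENCODE M21 basic on GRCm38.p6, whose chromosome names and lengths matched the lists. The value of a library in a region was its highest fold. Differences were tested with limma 3.58.1 in R 4.3.3 on quantile-normalised log2 fold enrichment, with 1 mean per subset, a mean-variance trend and Benjamini-Hochberg adjustment over 48805 regions. On data simulated for Th9 minus Th2 over 48805 regions, 176 of 200 changes of 1 on the log2 scale were recovered with 14 false calls, and 5 of 200 changes of 0.5 with 1. The simulated noise was normal, with the same SD for all libraries and for all regions of similar strength. These rates therefore need not hold for the real libraries. Copies were counted as the median occurrence, in the assembly, of the 31-base words of a window. Promoter windows came from RefSeq. Genes and regions were named by rank (10 per gene ranking, 5 strongest and weakest, 4 per direction of each comparison with at most 1 per nearest gene, 2 at each limit) or by fixed gene lists, without clone-style names (Gm plus a digit, or ending in Rik). The members, lists and rules were chosen with earlier results of these data known. Alternatives comprised a −log10 q minimum of 5, a fold minimum of 2.2 or 4, lists of equal length, distances of 5 and 50 kb, all annotated starts, no width limit, a base covered by all 6 libraries, other values and scales, an adjusted p of 0.1, a block for the replicate number and each library left out in turn. Windows of 1 copy and ranks among the regions called in all 6 libraries were added after seeing the data. Percentiles were taken within the whole list under every peak filter.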

Additional observations from a re-analysis of the deposited data

Results flagged for a closer look

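Chromosome X was outside the selection, which took chromosomes 1 to 19, and was examined as data that no comparison used. By the same criteria, 1028 distal regions of chromosome X were called in all 6 libraries, out of 10403 joined regions there, of which 1656 were called in all 6. That is 6.01 regions per Mb of chromosome X against 11.6 per Mb of chromosomes 1 to 19. The difference was not tested.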

How the results depend on the processing

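The number of distal regions open in all 6 libraries was 28484 and became 10812 with peaks of a −log10 q of at least 5, 16703 and 2973 with a fold of at least 2.2 and 4, and 15066 over 50 kb from a start; without 1 library it was 29346 to 32986. The intronic share of 35.8% became 36.9%, 37.4% and 33.6% under these 3 peak thresholds, 36.4% with lists of equal length and over 5 kb from a start, 30.7% over 50 kb, 39.1% with the starts of all annotated genes and 37.3% in windows of 1 copy, and was 35.3% to 36.1% without 1 library. The distal minus start difference of −22.6 percentile points was −9.08 with a −log10 q of at least 5, −13.5 with a fold of at least 2.2, −42.0 ranked among the regions called in all 6 libraries, −2.57 (exact permutation p = 0.0625) with a fold of at least 4 and −24.7 to −23.5 without 1 library, where 5 libraries cannot give a p below 0.0625. The calls between Th9 and Th2 (1053), Th9 and Th17 (2209) and Th2 and Th17 (2664) became 616, 814 and 1257 with the −log10 q of at least 5, 99, 24 and 184 with a fold of at least 4, 450, 1024 and 1262 over 50 kb, and 0, 103 and 288 on the percentile scale. With an adjusted p of 0.1 the first 2 became 1926 and 3369. Without 1 library they ranged over 352 to 682, 643 to 2603 and 1059 to 3102. Minima on peaks cut away the lower part of the percentile scale, which narrows the room for a distal minus start difference. The fits on 5 libraries have fewer residual degrees of freedom, and the fits on stricter peaks hold fewer regions. A lone library is assumed there to vary like those of the other subsets. With the replicate block, limma made 1353, 2474 and 2929 calls. The labels do not say whether libraries with the same replicate number share a mouse or a batch. The differences of replicate 1 and 3 correlated over regions at 0.173 between Th9 and Th2, 0.0319 between Th9 and Th17 and −0.0459 between Th2 and Th17. These values cannot tell whether the libraries were paired. Of the 24 named differences, 18 did not pass on the percentile scale and 6 passed under every alternative that gave them a value. The minimum fold of 4 gave no value to any of the 24, since each had a library below it. Over all 444 of their values, 0 turned direction.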

Other observations

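Distal regions were unevenly spread over the chromosomes. Per Mb of sequence over 10 kb from a start, chromosome 2 had the most at 16.3, followed by chromosome 6 at 15.4 and chromosome 17 at 15.3, and chromosome 19 had the fewest at 10.1, followed by chromosome 11 at 10.8. The median mean percentile was highest on chromosome 19 at 73.0 and lowest on chromosome 14 at 65.7. The T-box motif was in 4.80% of distal windows and between 5.19% and 5.88% of those called in each of the 6 directions, and the E-box motif CAGCTG was in 23.3% of the regions higher in Th17 than in Th2 and 12.6% of those higher in Th9 than in Th2, with 17.6% over all distal regions. The KLF/SP motif GGGGCGG was in 3.11% of distal and 37.8% of start-overlapping windows. These shares come from the same libraries and carry no test.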
